A study of Homo sapiens with 15 samples.

Results

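Enzalutamide, an inhibitor of the androgen receptor, was compared with its absence over all 15 arrays of a study of C42B cells: 8 arrays of cells that received enzalutamide against 7 that did not, whatever else the cells had received. C42B is an established, castration-resistant human prostate cancer line derived from LNCaP. The cells had been cultured for 3 days and were then treated for 6 h. Those without enzalutamide had received 0.125% DMSO (3 arrays), PF-543 at 15 µM (3 arrays) or ABC294640 at 15 µM (1 array). Those with enzalutamide at 10 µM had received it alone (2 arrays), with 15 µM PF-543 (3 arrays) or with 15 µM ABC294640 (3 arrays). PF-543 inhibits sphingosine kinase 1 and ABC294640 inhibits sphingosine kinase 2, the enzymes that make sphingosine-1-phosphate. A linear model took the inhibitor (none, PF-543 or ABC294640) as a covariate with 3 levels, so enzalutamide was always compared within an inhibitor background and the 3 differences were averaged by their precision. The no-inhibitor, PF-543 and ABC294640 backgrounds carried 34.8%, 43.5% and 21.7% of the weight of that average. All cells were of 1 line at 1 time and 1 dose of each drug, and nothing in the labels tells whether arrays of a group came from separate cultures. The p-values therefore weigh differences against a spread between arrays that may be technical only.

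The androgen receptor is a transcription factor that is released from chaperones, enters the nucleus and binds DNA when it is bound by androgen. In luminal prostate cells it drives secreted proteases such as prostate-specific antigen, and many factors of differentiation and secretion. Enzalutamide competes with androgen for the receptor and hinders its nuclear entry and DNA binding. ATF4, which appears below, is a different kind of factor: its protein is made when the kinases of the integrated stress response phosphorylate the initiation factor eIF2α, and it drives genes of amino acid import, amino acid synthesis and stress.

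Expression was read on a gene-level array as normalized log2 values, in which a difference of 1 is a 2-fold change. Of 21448 probe sets, 17709 carried a gene symbol and gave 17687 genes. Correlations between arrays ran from 0.9942 to 0.9968 and array medians from 6.71 to 6.76. The DMSO arrays correlated slightly less with the treated arrays (mean 0.9949) than the treated groups did with one another (0.9959), and their first quartile was higher (4.65 to 4.69 against 4.57 to 4.63). With quantile normalization, which gives all arrays the same quartiles, 187 of the 195 calls described below were kept and 0 changed sign. The part of the lower correlation in the results was not tested, and the number of arrays limits their precision.

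After 6 h, 195 of 17687 genes differed with enzalutamide (limma, Benjamini-Hochberg adjusted p under 0.05), which is 1.1% of the genes tested. More fell than rose: 127 genes (0.718% of those tested) were lower and 68 (0.384%) were higher. The median called fall was -0.51 and the median called rise was 0.40 on the log2 scale, and the smallest were -0.27 and 0.24. A change of at least 2-fold was reached by 13 of the falls and 3 of the rises, together 0.0905% of the genes tested. An unadjusted p under 0.05 was reached by 1902 genes, against 884 for a test in which nothing differs. At the edge of the threshold stood LRATD2, WDR37 and NCOA7 just inside (adjusted p = 0.0484, 0.0486 and 0.0489) and PRAG1, PTGES and ATF4 just outside (0.05, 0.0508 and 0.0508).

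The 195 genes had the same sign in all 3 inhibitor backgrounds, as did 27.5% of all genes. The 8 arrays with enzalutamide did not overlap the 7 without it in 99 of the 195 (24 higher, 75 lower). Such separation was seen in 0.198% of all genes upward and 0.475% downward. Within each background taken alone, the groups did not overlap in 163 of the 195 (54 higher, 109 lower), against 0.758% and 0.989% of all genes, together 1.75%. The called genes and these separations rest on the same arrays, so the counts describe the calls and add no support to them.

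Of 28 measured genes known to be induced by androgen, 15 were lower with enzalutamide, none was higher and 13 did not pass the test. Their median difference was -0.33, against -0.001 over all genes, and 26 of the 28 lay below 0, against 8887 of all 17687 genes. Beside the counts of this and every list below stand the shares over all genes, 0.718% called lower and 0.384% called higher. The median was -0.37 without inhibitor, -0.37 on PF-543 and -0.36 on ABC294640. FKBP5, which belongs to this response, was not analysed here.

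The largest fall of any gene was that of C1orf116, an androgen-regulated gene also called SARG. Its log2 levels were 12.58, 12.76 and 12.78 in DMSO and 10.21 and 10.10 with enzalutamide alone. They were 12.94, 12.97 and 12.89 on PF-543 against 10.47, 10.78 and 10.73 on PF-543 with enzalutamide. The ABC294640 array read 12.97 and its enzalutamide combination 10.48, 10.34 and 10.21. Every array with enzalutamide was thus far below every array without, in each background. The difference was -2.45 (SE 0.08), a 5.45-fold fall with adjusted p = 7.74e-11.

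SLC45A3, the prostate-restricted membrane transporter prostein, read 12.77, 12.90 and 12.77 in DMSO, 12.91, 12.82 and 12.76 on PF-543 and 12.89 on ABC294640. With enzalutamide it read 11.57 and 11.78 alone, 11.38, 11.44 and 11.44 on PF-543, and 11.66, 11.50 and 11.41 on ABC294640. The 7 arrays without enzalutamide agreed closely whichever inhibitor they had, and all 8 with it were lower. The fall was 2.47-fold (log2 -1.31, SE 0.07, adjusted p = 2.31e-08). TMPRSS2, a membrane serine protease whose promoter drives ERG in fusion-positive prostate tumours, fell 2.06-fold (log2 -1.04, SE 0.07, adjusted p = 2.06e-07), again with no overlap.

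KLK3 encodes prostate-specific antigen. It stood at 16.18, 16.22 and 16.23 in DMSO, 16.05, 16.02 and 16.01 on PF-543 and 16.04 on ABC294640. With enzalutamide it stood at 15.83 and 15.75 alone, 15.69, 15.74 and 15.64 on PF-543 and 15.82, 15.66 and 15.67 on ABC294640. The groups did not overlap, but the fall was only 1.29-fold (log2 -0.36, SE 0.05, adjusted p = 0.00121). At a mean of 15.9 its signal lay near the top of the array's range, and whether the probe set was saturated was not tested. Its neighbour in function KLK2, a protease that activates prostate-specific antigen, fell 1.52-fold (log2 -0.60, SE 0.08, adjusted p = 0.000809), and no array with enzalutamide reached any array without it. Without the PF-543 background the falls of KLK2 and KLK3 kept their size (-0.59 and -0.38) with adjusted p = 0.126 and 0.167, and without the no-inhibitor background KLK3 had -0.33 with adjusted p = 0.0832.

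Of the androgen-induced transcription factors, ZBTB16, the zinc finger repressor PLZF, fell 4.62-fold (log2 -2.21, SE 0.10, adjusted p = 4.42e-09), from 9.34 to 9.58 over the arrays without enzalutamide to 6.97 to 7.72 over those with it. MAF, a leucine zipper factor, fell 2.95-fold (adjusted p = 9.89e-06), with log2 differences of -1.24 without inhibitor, -1.68 on PF-543 and -1.84 on ABC294640. ZBTB10, another zinc finger protein, fell 1.94-fold (SE of log2 0.09, adjusted p = 1.39e-05). PMEPA1, a membrane protein that restrains TGF-β signalling and also counts among the TGF-β targets, fell 2.89-fold (log2 -1.53, SE 0.10, adjusted p = 3.12e-07). The groups did not overlap for any of these 4 genes.

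Among the other androgen-induced genes that fell, NDRG1, a differentiation and stress gene, dropped by 0.74 and the transcription elongation factor ELL2 by 0.70 on the log2 scale. NDRG1 missed the threshold without the PF-543 or the no-inhibitor background (adjusted p = 0.126 and 0.0522). The kinetochore gene CENPN, the ubiquitin ligase gene HERC3, the metalloreductase gene STEAP2 and the vesicle GTPase gene RAB3B fell by 0.31 to 0.33, with adjusted p from 0.0251 to 0.0455. Those last 4 lost the call when any of 8, 11, 5 and 13 arrays was left out, among them the ABC294640 array without enzalutamide, where adjusted p was 0.126, 0.0794, 0.103 and 0.152. Of the 15 falls, 6 did not pass in any single background. The transporter gene ABCC4 (log2 -0.24, adjusted p = 0.0886), the protease gene KLK4 (-0.22, 0.0633) and the kinase gene CAMKK2 (-0.31, 0.17) did not pass, and HPGD and TNK1 alone lay above 0 (0.09 and 0.05).

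**Figure D1:**
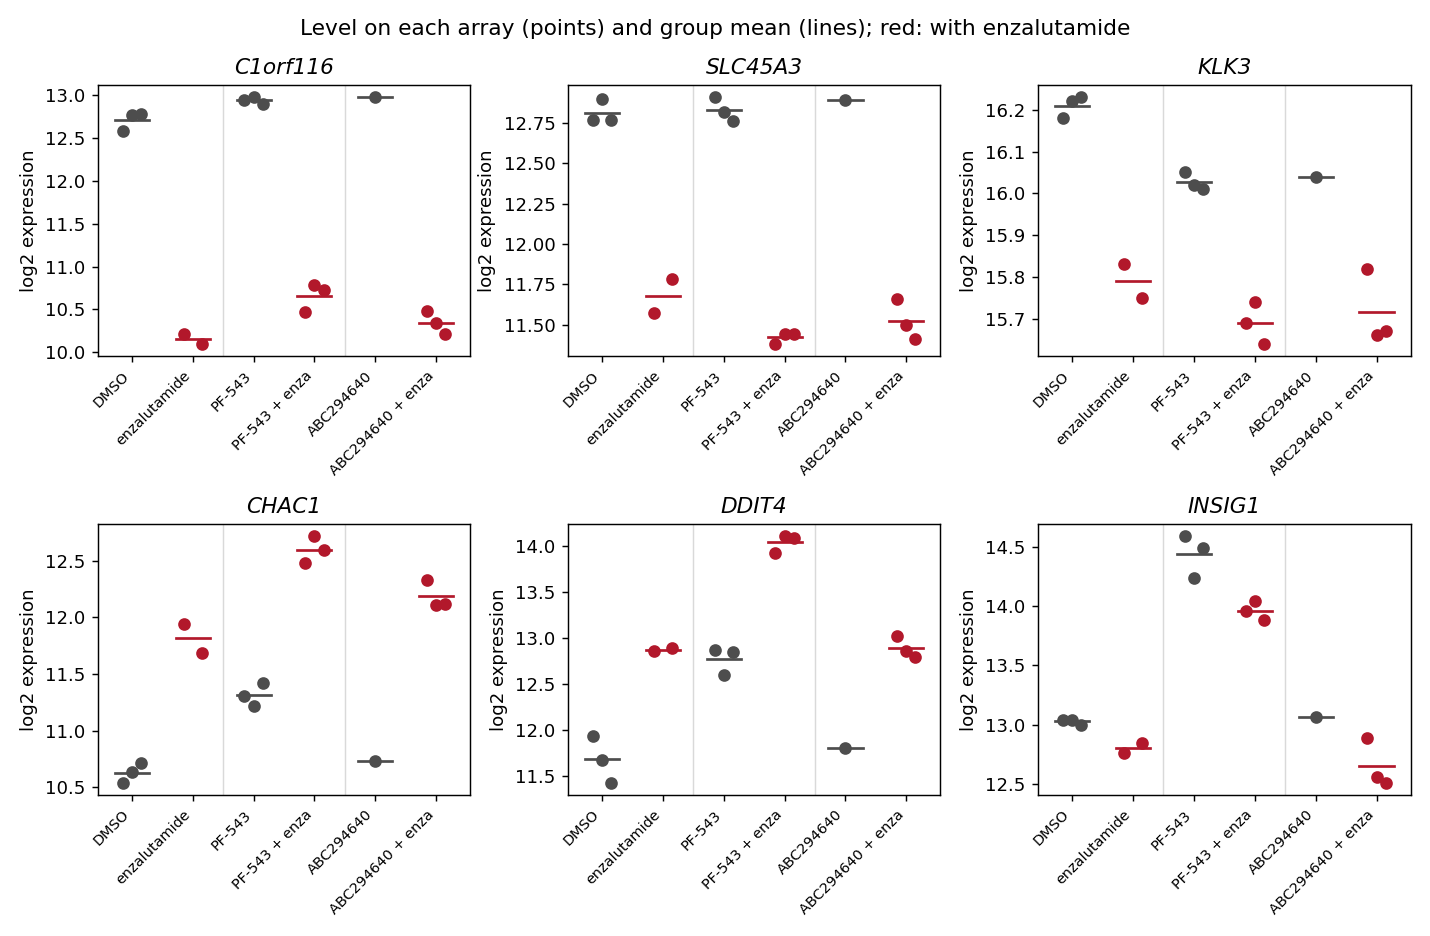
Log2 expression of 6 genes on each of the 15 arrays (points), with the mean of each treatment group (lines); red marks groups with enzalutamide, grey groups without, and each panel has its own vertical range. In C1orf116, SLC45A3 and KLK3 every red point lies below every grey point, and in CHAC1 every red point lies above. In DDIT4 and INSIG1 the groups separate only within an inhibitor background. The PF-543 points of INSIG1 lie above all others. Those of DDIT4 lie above the other points of their colour, and its grey PF-543 points overlap red points of other backgrounds.

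Promoters of these genes were read from RefSeq (GRCh38.p14), 250 bases before to 50 bases after the start of the gene, to see which carry letters of the androgen receptor's element next to the start. On either strand, the full element was searched as GNACA and TGTNC with 3 bases of any kind between them, and its core as AGAACA, which can form part of the full element. The full element was in 0 of the 10 androgen-induced falls with a promoter in the table, in 1 of the 103 falls so matched, and in 0.246% of the 14250 promoters of measured genes. The core was in 2 of those 10 and in 11 of the 103 (10.7%), near the 10.9% of measured genes. The 2 are shown because they were the only called androgen-induced genes whose promoter held the core. Both genes were lower on every array with enzalutamide than on any without. The capitals mark the core, 170 bases before the start in KLK3 (chr19:50854665-50854964, plus strand) and 22 bases after it in PMEPA1 (chr20:57711423-57711722, minus strand). A match of letters is a description and does not tell whether the site is bound. Elements that depart from the searched letters were not counted, and elements outside the window were not searched.
KLK3 promoter: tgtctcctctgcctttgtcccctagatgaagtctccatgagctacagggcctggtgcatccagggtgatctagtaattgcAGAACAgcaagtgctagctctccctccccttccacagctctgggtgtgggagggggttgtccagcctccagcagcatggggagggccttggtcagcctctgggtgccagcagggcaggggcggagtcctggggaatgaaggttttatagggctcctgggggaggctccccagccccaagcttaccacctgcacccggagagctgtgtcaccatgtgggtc
PMEPA1 promoter: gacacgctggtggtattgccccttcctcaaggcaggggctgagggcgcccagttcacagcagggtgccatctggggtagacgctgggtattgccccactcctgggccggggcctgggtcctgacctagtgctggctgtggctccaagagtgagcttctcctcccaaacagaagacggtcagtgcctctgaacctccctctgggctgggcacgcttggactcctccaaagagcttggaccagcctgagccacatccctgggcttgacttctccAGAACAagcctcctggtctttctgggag

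Large falls were not limited to the androgen-induced list. Of the 195 called genes, 149 stood on none of the 30 lists examined. SNAI2, the transcription factor Slug of epithelial-mesenchymal transition, fell 4.69-fold (log2 -2.23, SE 0.19, adjusted p = 9.89e-06). It read 6.29, 6.74 and 6.69 in DMSO against 5.12 and 4.05 with enzalutamide, 7.76, 7.75 and 7.01 on PF-543 against 5.31, 4.99 and 4.86, and 7.31 on ABC294640 against 5.73, 4.81 and 4.90. The spread was wider than for C1orf116 at these low levels, and still no array with enzalutamide reached the lowest array without it.

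RHOU, a small GTPase, fell 3.80-fold (log2 -1.93, SE 0.08, adjusted p = 1.6e-09), from between 11.46 and 11.71 to between 9.33 and 9.89. CDC42EP3, an effector of the GTPase CDC42, fell 3.73-fold (adjusted p = 1.08e-07). The difference in CDC42EP3 was -1.96 without inhibitor, -1.79 on PF-543 and -2.02 on ABC294640. No list held these genes, so they are named as single genes.

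KLF5, a Krüppel-like transcription factor of epithelial growth, fell 3.29-fold (log2 -1.72, SE 0.11, adjusted p = 2.75e-07). THBS1, the secreted matrix protein thrombospondin 1, fell 2.52-fold (log2 -1.34, SE 0.17, adjusted p = 0.000459). It was the most variable of the large falls on PF-543 with enzalutamide, where the 3 arrays read 8.77, 7.48 and 7.79. SEMA6D, a transmembrane semaphorin, fell 2.38-fold (adjusted p = 7.85e-07) and CCDC141 2.18-fold (adjusted p = 6.03e-06). FAM110B fell by 0.94, 0.86 and 0.92 in the 3 backgrounds. All of these separated the 8 arrays from the 7 without overlap.

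Several further falls, chosen here for their function after their values were seen, were of moderate size. KLF7, a Krüppel-like factor, fell by 0.85 (adjusted p = 5.38e-06). LRIG1, which restrains receptor tyrosine kinases, fell by 0.76 (adjusted p = 0.000143), and IGF1R, the receptor of insulin-like growth factor 1, fell by 0.75 (adjusted p = 0.0032). NFKBIA, the inhibitor of NF-κB, fell by 0.74 (adjusted p = 4.67e-05). The hormone-responsive gene GREB1 fell by 0.67, the prostate epithelial factor SPDEF by 0.45 and the metalloreductase family gene STEAP1 by 0.32. In each of these 7 genes the groups did not overlap.

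**Figure D2:**
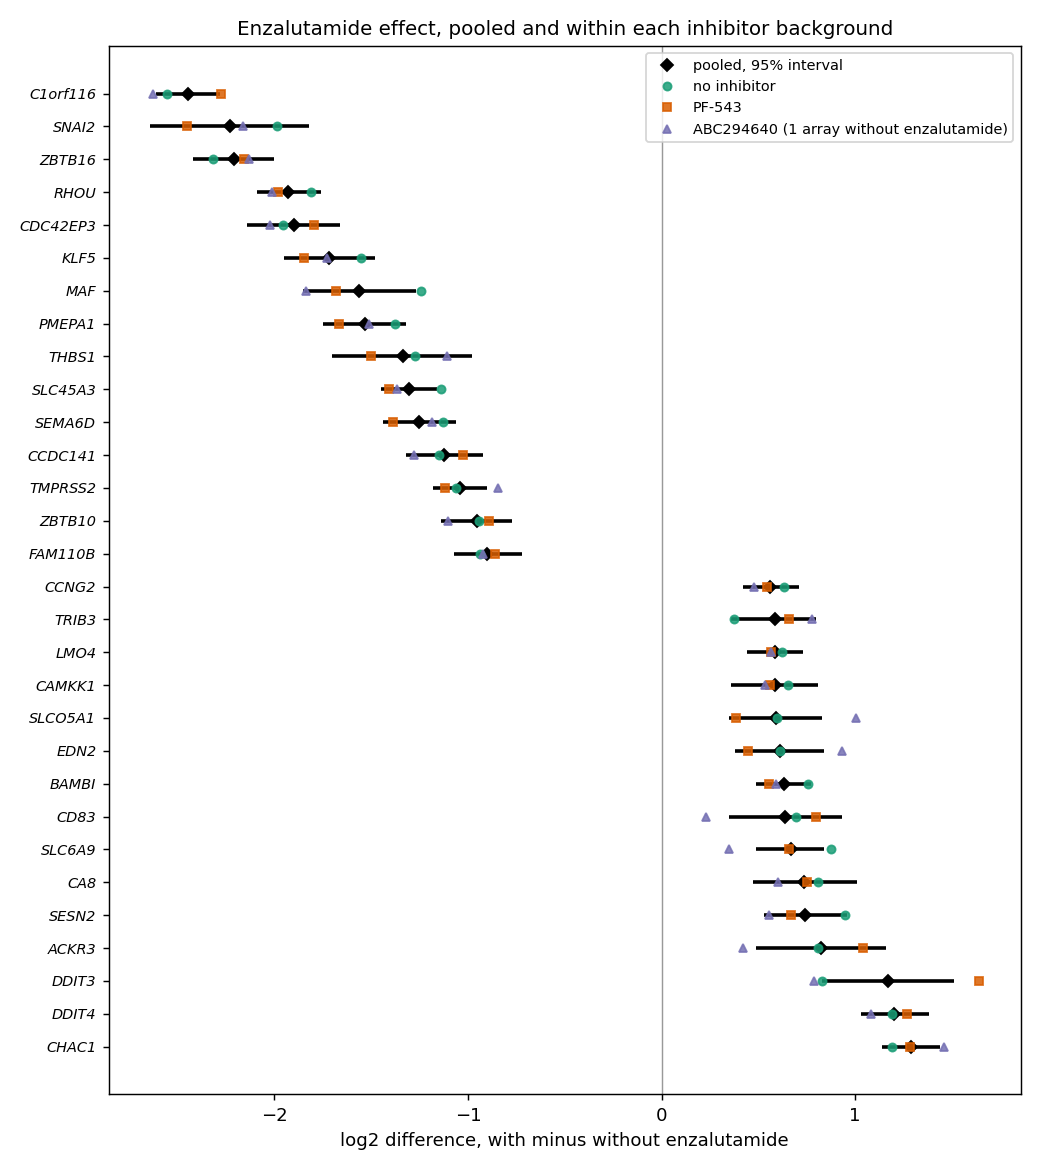
Log2 difference with minus without enzalutamide for the 15 largest falls and the 15 largest rises past the threshold: black diamonds with bars are the pooled difference and its 95% interval, and coloured symbols are the difference within each inhibitor background. All symbols of a gene lie on the same side of 0, from C1orf116 at -2.45 to CHAC1 at 1.29. The ABC294640 symbols rest on 1 array without enzalutamide. Compared across genes, they lie farthest from the diamond for ACKR3, CD83, DDIT3, EDN2, SLC6A9 and SLCO5A1. For DDIT3 the PF-543 symbol (1.64) lies farther from the diamond (1.17) than the ABC294640 symbol (0.79).

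Of 34 measured genes known as ATF4 targets, 12 were higher with enzalutamide, 1 was lower (SLC38A2, an amino acid transporter, log2 -0.29, adjusted p = 0.0271) and 21 did not pass. Their median difference was 0.19, against -0.001 over all genes, and 32 of 34 lay above 0, against 8800 of all 17687 genes. ATF4 itself, which stands on the list, missed the threshold (log2 0.23, SE 0.05, adjusted p = 0.0508). Without the inhibitor covariate 6 targets were called higher, without the PF-543 background 4 and without the no-inhibitor background 7.

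The leading rise was CHAC1, an enzyme that degrades glutathione. It read 10.54, 10.63 and 10.71 in DMSO and 11.94 and 11.69 with enzalutamide. On PF-543 it read 11.31, 11.22 and 11.42, and 12.48, 12.72 and 12.60 once enzalutamide was added, while on ABC294640 it moved from 10.73 to 12.33, 12.11 and 12.12. The PF-543 arrays lay above the DMSO arrays without enzalutamide, and enzalutamide came on top of that, so that all 8 arrays with it exceeded all 7 without. The rise was 2.44-fold (log2 1.29, SE 0.07, adjusted p = 4.95e-08), and CHAC1 was the only rise among the 13 genes that passed in all 3 backgrounds taken singly.

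DDIT4 encodes REDD1, which restrains the growth kinase complex mTORC1. It read 11.94, 11.68 and 11.43 in DMSO, 12.86 and 12.89 with enzalutamide, 12.87, 12.60 and 12.85 on PF-543 and 13.93, 14.11 and 14.09 on both. The ABC294640 array read 11.81 and the combination 13.02, 12.86 and 12.79. PF-543 without enzalutamide thus overlapped enzalutamide alone, and the pooled groups overlapped although each background separated. With the covariate the rise was 2.30-fold (log2 1.20, SE 0.08, adjusted p = 4.7e-07), and without it the difference was 1.15 with adjusted p = 0.0524.

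DDIT3, the stress-induced transcription factor CHOP, read 7.80, 7.74 and 7.36 in DMSO, 7.73, 7.33 and 7.90 on PF-543 and 7.76 on ABC294640. With enzalutamide it read 8.56 and 8.36 alone, 9.04, 9.53 and 9.31 on PF-543, and 8.76, 8.70 and 8.18 on ABC294640. The highest 3 arrays were those of PF-543 with enzalutamide, and all 8 lay above all 7. The pooled rise was 2.25-fold (log2 1.17, SE 0.16, adjusted p = 0.000974), made of 0.83, 1.64 and 0.79 in the 3 backgrounds. The excess on PF-543 over no inhibitor was 0.81 (SE 0.29), which did not pass (adjusted p = 0.525).

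The other ATF4 targets that rose cover stress signalling and amino acid supply. SESN2, a leucine sensor that restrains mTORC1, rose by 0.74 (SE 0.10, adjusted p = 0.00098) and the pseudokinase TRIB3 by 0.58 (adjusted p = 0.0102). The glycine transporter gene SLC6A9 rose by 0.67, with 0.88, 0.66 and 0.35 in the 3 backgrounds. The secreted glycoprotein gene STC2 rose by 0.54 (adjusted p = 0.000143) and ASNS, asparagine synthetase, by 0.40 (adjusted p = 0.00121). Smaller or less certain rises were those of JDP2 (0.55), SLC7A11, the cystine-glutamate antiporter gene (0.36), PSPH, the last enzyme of serine synthesis (0.32), and SLC7A5, a transporter of large amino acids (0.26), with adjusted p from 0.0333 to 0.0472.

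Some of these calls were near the threshold and were lost when an array was left out. The ABC294640 array is the only one of its background without enzalutamide, so leaving it out takes that whole background out of the pooled difference. Without the ABC294640 array, adjusted p was 0.0594 for TRIB3, 0.124 for JDP2, 0.141 for SLC7A11, 0.0953 for SLC7A5 and 0.092 for SLC38A2. Of single arrays, TRIB3 lost its call without that one only, but it also missed without the covariate (0.17) and without the PF-543 background (0.318). DDIT3, SLC6A9 and ASNS missed without the PF-543 background (0.101, 0.115 and 0.253), and SESN2 without the no-inhibitor background (0.0745). JDP2 lost its call without any of 9 arrays, SLC38A2 of 9, PSPH of 11, SLC7A11 of 12 and SLC7A5 of 14. Adjusted p reached 0.124, 0.092, 0.0926, 0.141 and 0.132 in that order. PSPH also missed with quantile and cyclic loess normalization (0.0516 and 0.0554). The count of rises among ATF4 targets was 8 to 11 when each array was left out in turn. Of the remaining targets, GDF15, a secreted stress cytokine, had a difference of 0.55 (adjusted p = 0.0572), and PHGDH, PSAT1 and SHMT2 of serine and glycine synthesis had 0.13, 0.18 and 0.04 (adjusted p = 0.326, 0.186 and 0.82).

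The promoter window described above was also searched for TGATGNAA on either strand, letters of the composite element at which ATF4 pairs with C/EBP factors. It was in 6 of the 29 measured ATF4 targets with a promoter in the table (20.7%), in 5 of 52 genes that rose (9.62%), in 0 of 103 that fell and in 2.52% of the promoters of measured genes. Among the 10 ATF4 targets that rose and had a promoter, it was in CHAC1 and ASNS alone, which are shown for that reason. Both were higher on every array with enzalutamide than on any without. The capitals mark the match, which lies 209 bases before the start and on the opposite strand in CHAC1 (chr15:40953221-40953520, plus strand) and 68 bases before the start in ASNS (chr7:97872359-97872658, minus strand).
CHAC1 promoter: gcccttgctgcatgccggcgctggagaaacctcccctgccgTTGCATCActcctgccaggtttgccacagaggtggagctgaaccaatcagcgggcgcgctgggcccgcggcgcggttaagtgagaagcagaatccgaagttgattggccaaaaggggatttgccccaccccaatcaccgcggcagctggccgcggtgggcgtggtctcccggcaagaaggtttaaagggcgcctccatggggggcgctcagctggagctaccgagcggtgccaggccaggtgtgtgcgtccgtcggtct
ASNS promoter: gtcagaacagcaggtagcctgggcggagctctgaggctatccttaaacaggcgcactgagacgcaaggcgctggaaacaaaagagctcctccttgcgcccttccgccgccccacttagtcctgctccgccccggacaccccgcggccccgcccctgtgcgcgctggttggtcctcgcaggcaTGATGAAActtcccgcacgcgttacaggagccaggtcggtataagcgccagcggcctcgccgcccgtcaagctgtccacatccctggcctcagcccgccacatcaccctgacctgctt

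Outside the ATF4 list, ACKR3, a scavenging receptor of the chemokine CXCL12 and the only member of 11 measured androgen-repressed genes to pass, rose 1.77-fold (log2 0.83, SE 0.16, adjusted p = 0.0174). The median of the androgen-repressed genes was 0.05. Its arrays overlapped, since PF-543 replicate 3 read 6.48 and enzalutamide replicate 2 read 6.39. Without enzalutamide replicate 1 the adjusted p of ACKR3 was 0.057. ACKR3 also missed the threshold without the PF-543 or the no-inhibitor background (adjusted p = 0.173 and 0.187).

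BAMBI, a pseudoreceptor that dampens TGF-β signalling, rose 1.55-fold (log2 0.63, SE 0.07, adjusted p = 5.69e-05), from between 12.63 and 12.91 to between 13.24 and 13.59. LMO4, a LIM-domain transcriptional adaptor, rose 1.5-fold (log2 0.59, SE 0.07, adjusted p = 0.000164) with nearly equal differences of 0.62, 0.57 and 0.56. CA8, a carbonic anhydrase-related protein, rose by 0.74 (adjusted p = 0.0078). The kinase gene CAMKK1 rose by 0.59 (adjusted p = 0.0111) and CCNG2, a cyclin linked to cell cycle exit, by 0.56 (adjusted p = 0.000295). CCNG2 missed the threshold without the inhibitor covariate (0.53, adjusted p = 0.252) and without the PF-543 background (0.57, 0.101). Without the PF-543 background CA8 and CAMKK1 missed it too (adjusted p = 0.274 and 0.152). CA8 also missed it without the ABC294640 background (0.0579) and CAMKK1 without the no-inhibitor background (0.193). BAMBI, LMO4 and CA8 separated the 8 arrays from the 7, and CAMKK1 and CCNG2 did so only within each background.

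The peptide gene EDN2 (endothelin 2), SLCO5A1 of the organic anion transporter family and the immune surface protein gene CD83 also passed, with differences of 0.61, 0.59 and 0.64 and adjusted p of 0.0112, 0.0172 and 0.034. Without the ABC294640 array these were 0.52 (adjusted p = 0.0667) for EDN2 and 0.48 (0.0803) for SLCO5A1, which also missed without enzalutamide replicate 1 (0.0561). CD83 lost the call when any of 10 different arrays was left out, with adjusted p from 0.0513 to 0.102. All 3 missed the threshold without the PF-543 or the no-inhibitor background. Adjusted p was then 0.122 and 0.101 for EDN2, 0.0885 and 0.17 for SLCO5A1, and 0.244 and 0.325 for CD83. Among called rises chosen after their values were seen, VDR, the vitamin D receptor, rose by 0.43 (adjusted p = 0.00342) and the histone demethylase gene KDM6A by 0.46 (adjusted p = 0.00158), both without overlap.

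Partners of the androgen receptor mostly did not pass. Among 11 measured cofactors and partner factors, HOXB13, the homeobox factor of prostate identity, rose 1.40-fold (log2 0.49, SE 0.08, adjusted p = 0.00308) and PIAS1, a SUMO ligase that modulates the receptor, fell 1.35-fold (log2 -0.43, SE 0.07, adjusted p = 0.00273). Without the PF-543 or the no-inhibitor background HOXB13 missed the threshold (adjusted p = 0.103 and 0.122). PIAS1 missed it without the PF-543, the no-inhibitor or the ABC294640 background (0.126, 0.0572 and 0.0517). The pioneer factor gene FOXA1 had a difference of -0.07 (adjusted p = 0.729) and GATA2 one of 0.33 (adjusted p = 0.0712). HOXB13 rose by 0.75 without inhibitor and by 0.36 and 0.33 on the inhibitors, with a range of 12.50 to 12.84 without enzalutamide and 13.01 to 13.38 with it. A test of whether those 3 differences are unequal gave an unadjusted p of 0.0238 (limma F test) and did not pass after adjustment. None of 19 genes of steroid metabolism passed (median -0.10).

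Genes of other nuclear receptor and kinase pathways moved singly. Of 8 measured glucocorticoid receptor targets, ZBTB16 and ERRFI1 fell and TSC22D3 rose, with a median of -0.26. ERRFI1, an inhibitor of the EGF receptor, fell 1.61-fold (log2 -0.69, SE 0.08, adjusted p = 0.000164) without overlap, and TSC22D3, the leucine zipper protein GILZ, rose 1.32-fold (adjusted p = 0.0151). The TSC22D3 call was lost without enzalutamide replicate 1 (0.0504), without the inhibitor covariate (0.56), and without the PF-543, no-inhibitor or ABC294640 background (0.265, 0.195 and 0.0526). Of 14 measured genes of ERK feedback, ERRFI1 and the phosphatase gene DUSP4 (log2 -0.61, adjusted p = 0.000599) fell. DUSP4 missed the threshold without the PF-543 background (adjusted p = 0.101). Among 19 immediate early genes only the orphan receptor gene NR4A1 passed (log2 -0.46, adjusted p = 0.0136). It missed the threshold without the PF-543 or the no-inhibitor background (adjusted p = 0.31 and 0.203).

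FOXO targets went both ways. Of 18 measured, CCNG2 and TSC22D3 rose while TXNIP, a thioredoxin-binding protein, IRS2, an insulin receptor substrate, and CITED2, a transcriptional coregulator, fell, and the median was 0.02. TXNIP differed by -0.67 (SE 0.12, adjusted p = 0.0134; 0.0733 without the ABC294640 array), with overlap on PF-543. IRS2 and CITED2 differed by -0.41 and -0.34, and lost the call without any of 9 and 8 arrays (adjusted p up to 0.0907 and 0.0778). Of 19 genes of the endoplasmic reticulum's secretory machinery, XBP1, a factor of the unfolded protein response, rose by 0.34 (SE 0.05, adjusted p = 0.00262). XBP1 missed the threshold without the PF-543 or the no-inhibitor background (adjusted p = 0.269 and 0.0589). HERPUD1, which acts in degradation at that membrane, rose by 0.32 (adjusted p = 0.0209, and up to 0.084 without any of 5 arrays).

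Of 16 tRNA synthetase genes only SARS1, which charges serine to its tRNA, passed. It rose by 0.34 (adjusted p = 0.0172, and 0.0517 without enzalutamide replicate 1). SARS1 also missed the threshold without the PF-543 or the no-inhibitor background (adjusted p = 0.387 and 0.243). The median of the 16 was 0.09, and 15 lay above 0, against 8800 of all 17687 genes. Whether the 16 moved together was not tested. Of 14 hypoxia genes DDIT4 rose and NDRG1 fell, of 14 NRF2 targets SLC7A11 rose, and of 13 TGF-β and BMP targets BAMBI rose and PMEPA1 fell. All 5 genes also appear above, so these lists give no separate result.

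**Figure D3:**
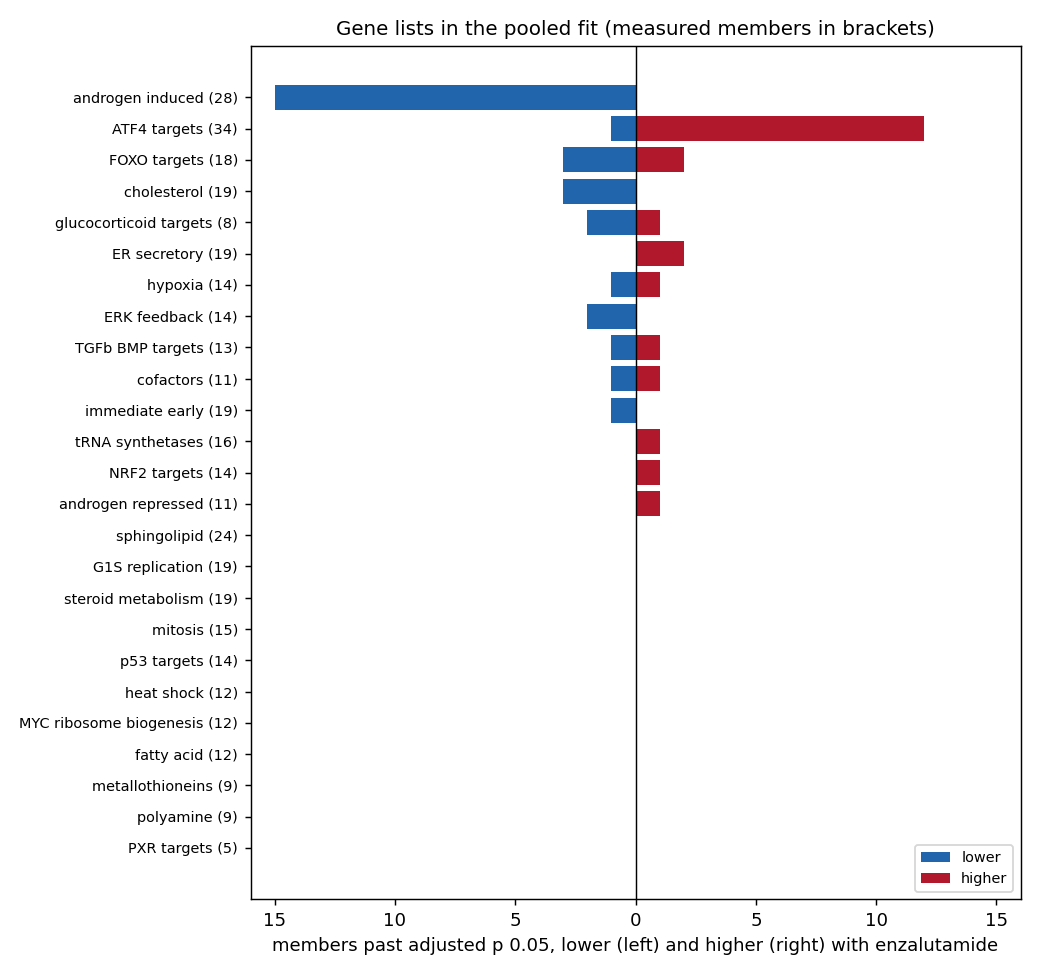
Number of members of each gene list that were lower (blue, left) or higher (red, right) with enzalutamide past an adjusted p of 0.05, with the number of measured members in brackets. The androgen-induced list has 15 lower and 0 higher of 28, the ATF4 list 12 higher and 1 lower of 34, and no other list drawn has more than 5 called members. Lists of cell type markers are not drawn.

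Of 19 measured genes of cholesterol synthesis and its control, IDI1, INSIG1 and MSMO1 fell, none rose and 16 did not pass, with a median of -0.14. INSIG1, which holds the sterol-sensing complex in the endoplasmic reticulum, read 13.04, 13.04 and 13.00 in DMSO and 12.76 and 12.84 with enzalutamide. On PF-543 it read 14.59, 14.24 and 14.49, then 13.96, 14.04 and 13.88 with enzalutamide, and on ABC294640 13.06, then 12.89, 12.56 and 12.51. The PF-543 arrays, with or without enzalutamide, lay above all others, so the pooled groups overlapped while each background separated.

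INSIG1 fell 1.30-fold (log2 -0.38, SE 0.08, adjusted p = 0.0286), IDI1, an isomerase of isoprenoid synthesis, 1.34-fold (adjusted p = 0.00793) and MSMO1, a sterol oxidase, 1.27-fold (adjusted p = 0.00755). Without the covariate adjusted p was 0.65, 0.48 and 0.623 for these genes, at differences of -0.46, -0.45 and -0.44. INSIG1 lost the call without any of 7 arrays, with adjusted p up to 0.0906. Without the PF-543 background INSIG1, IDI1 and MSMO1 had adjusted p of 0.46, 0.404 and 0.335, and without the no-inhibitor background MSMO1 had 0.17. HMGCS1 and MVD, 2 enzymes of the mevalonate pathway, had larger differences of -0.44 and -0.45 that did not pass (adjusted p = 0.111 and 0.224); on PF-543 they were -0.83 and -0.82, and without inhibitor -0.05 and -0.27. None of 12 fatty acid genes passed (median -0.07).

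No called member was found in several lists at this time point. They were cell cycle entry and replication (19 measured, median -0.04), mitosis (15, -0.05), MYC and ribosome biogenesis (12, 0.13), p53 targets (14, -0.01), heat shock (12, 0.01), metallothioneins (9, 0.17), polyamine synthesis (9, 0.00) and targets of the xenobiotic receptor PXR (5, -0.02). The 24 measured sphingolipid genes also gave none (median 0.05). SPHK1, which encodes the target of PF-543, had a difference of 0.21 (SE 0.09, adjusted p = 0.38), made of 0.00 without inhibitor, 0.33 on PF-543 and 0.31 on ABC294640. A gene that missed the threshold is not shown to be unchanged.

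Pooling found genes that no single background found. Each background alone gave 55 calls without inhibitor (22 higher, 33 lower; 0.311% of genes), 55 on PF-543 (14 higher, 41 lower; 0.311%) and 14 on ABC294640 (1 higher, 13 lower; 0.0792%, as 0.00565% higher and 0.0735% lower). Of the 195 pooled calls, 57 were called in at least 1 background and 138 (54 rises, 84 falls) in none. Conversely, 28 genes were called in a background and not in the pooled fit. The median standard error was 0.097 for the pooled difference and 0.158, 0.142 and 0.200 within the 3 backgrounds.

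The 13 genes called in all 3 backgrounds were CHAC1, which rose, and 12 that fell: C1orf116, ZBTB16, RHOU, CDC42EP3, KLF5, MAF, PMEPA1, SLC45A3, SEMA6D, CCDC141, TMPRSS2 and KLF7. Over all pooled falls, the median difference was -0.48 without inhibitor, -0.51 on PF-543 and -0.51 on ABC294640. Over all pooled rises the medians were 0.46, 0.40 and 0.39. The members were called on the average of these 3 values, so the medians are a description.

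Whether the effect of enzalutamide differed between backgrounds was tested for each gene with an F test on the 2 interaction terms. No gene passed (smallest adjusted p = 0.328, limma), although 1463 genes (8.27%) had an unadjusted p under 0.05. Among the 195 pooled calls 5 (2.56%) did, and their smallest adjusted p was 0.504. The pooled model has no interaction term, so a difference between backgrounds widened its spread and made a call less likely. The low share among the calls follows in part from that selection and does not show equal effects. The 3 pairwise differences between backgrounds also gave no call, with smallest adjusted p of 0.215 for PF-543 against none, 0.211 for ABC294640 against none and 0.315 for PF-543 against ABC294640. With 1 array of ABC294640 without enzalutamide, effects of moderate size in that background could be missed.

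The genes with the smallest F test p were not among the pooled calls, as the pooled model makes likely, and none passed the adjusted test. KDM4B, a histone demethylase that acts with the androgen receptor, had differences of 0.31 without inhibitor, -0.55 on PF-543 and -0.72 on ABC294640. It read 7.41, 7.42 and 7.37 in DMSO, 7.85 and 7.57 with enzalutamide, 8.15, 7.95 and 7.80 on PF-543, 7.35, 7.47 and 7.43 on both, 8.01 on ABC294640 and 7.34, 7.27 and 7.26 on that combination. The inhibitor arrays without enzalutamide were high, and those with it were near DMSO. TLK1, a chromatin-linked kinase, differed by 0.89, 0.06 and -0.40, ZFTA by -0.48, 0.76 and -0.93, and ZBTB14 by -0.59, -0.17 and 0.45. GDNF-AS1 (-0.53, 0.61 and 0.02) and FAM222B (-0.13, -0.41 and 0.69) complete the 6.

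The backgrounds share no arrays, so calls from one set could be read in another. In the 10 arrays with an inhibitor alone, 74 genes were called (19 higher, 55 lower). In the 5 arrays without inhibitor, 70 of the 74 (94.6%) had the same sign, against 53.2% of all genes, and 54 (73.0%) had an unadjusted p under 0.05, against 10.4% of all genes. The median size was 0.67 where they were called and 0.66 in the same direction where they were read. Only 3 (4.05%) passed the adjusted threshold in the 5 arrays.

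The 4 genes of opposite sign were SMYD5, BHLHE40, PIGBOS1 and KDM4B. In the other direction, the 5 arrays gave 3 calls, all lower, and all 3 (100%) were called with the same sign in the 10 arrays, with median sizes of 2.32 and 2.15.

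**Figure D4:**
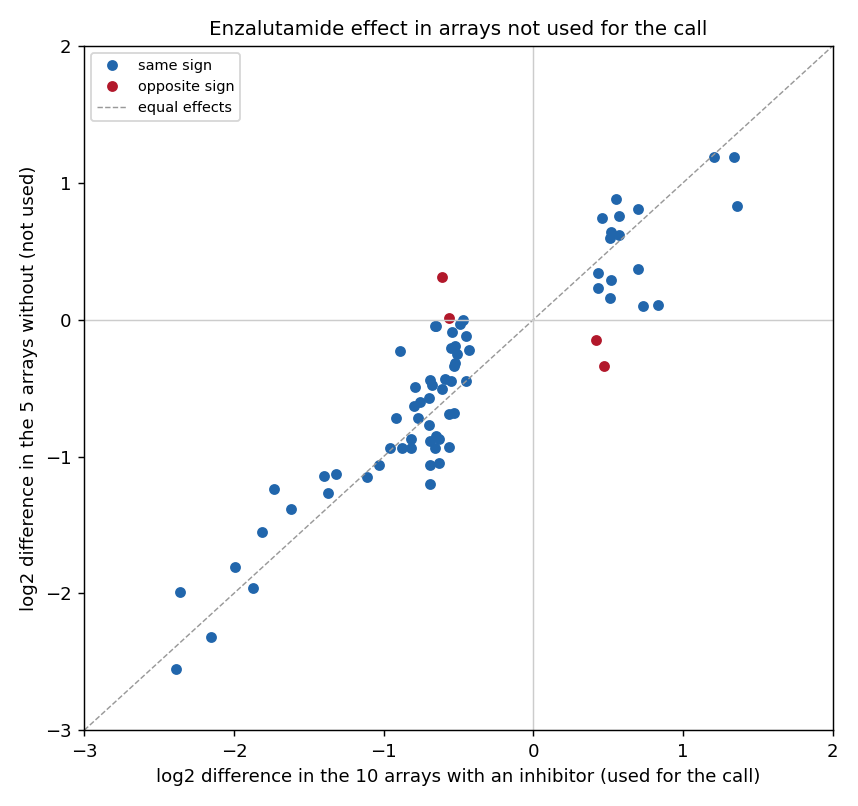
Log2 difference with minus without enzalutamide for the 74 genes called in the 10 arrays with an inhibitor (horizontal axis), read in the 5 arrays without inhibitor that were not used for the call (vertical axis); the dashed line marks equal differences. Of the 74 points, 70 lie in the quadrants of equal sign (blue) and 4 in those of opposite sign (red).

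The labelled cell type was checked against its markers. The 12 measured luminal markers had mean levels of 9.62 to 15.9, and the keratin genes KRT8 and KRT18, EPCAM and FOLH1 had differences of 0.01, 0.00, 0.04 and 0.11 that did not pass. The luminal markers that were called are genes described above: KLK2, KLK3, SLC45A3, TMPRSS2 and STEAP2 fell and HOXB13 rose. The summed level of all 12 luminal markers was 159.9 to 160.8 with enzalutamide and 162.4 to 164 without. None of the 4 basal, 7 neuroendocrine, 6 fibroblast or 6 immune markers measured was called, and their summed levels overlapped between arrays with and without enzalutamide (17.8 to 19.4 against 17 to 19.3, 29.2 to 31.4 against 29.8 to 31.6, 35.2 to 37.1 against 35.1 to 37.5, and 31.5 to 33.2 against 32.2 to 33.7). COL1A2 was the one fibroblast marker with a clear signal, at a mean of 9.15.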

How the data were processed

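RNA of 15 samples was measured on gene-level Affymetrix arrays, and the deposited log2 values were used as they are. Per the submitters' processing notes, the authors normalized with RMA in Transcriptome Analysis Console 4.02; the genome build was not given in the sources used here. Probe sets were named from the platform's annotation table: 17709 had 1 symbol, 0 several and 3739 none. For 20 genes with several probe sets the one of highest mean was kept.

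Groups came from the sample titles. Differences were fitted with limma 3.58.1 (R 4.3.3; lmFit and eBayes; 11 residual and 3.92 prior degrees of freedom) on enzalutamide plus inhibitor, with Benjamini-Hochberg adjustment over 17687 genes and a threshold of 0.05. Effects within a background and their differences came from a fit of 6 group means, in which the single ABC294640 array is assumed to vary like the other groups. The scripts were tested on simulated data. No array pair was identical. Replicate numbers were not used to pair samples in the main fit. For the pooled fit 14 alternatives were run, besides a fit without each array in turn.

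The genes named are the 15 largest rises and 15 largest falls with 1 sign in the 3 backgrounds, the 6 smallest F test p-values, up to 4 called members per list, and in any case KLK3, KLK2, TMPRSS2, FKBP5 and SPHK1 (some items of this rule are not reported here), besides those said to be chosen after their values were seen and further list members given for completeness. The comparison, the 30 lists and the rules were chosen with earlier results of these data known. Promoters were searched with Python 3.11.15 in RefSeq sequences (GRCh38.p14; 27305 promoters, 14250 of measured genes).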

Additional observations from a re-analysis of the deposited data

Results flagged for a closer look

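Signal was also found in probe sets without a gene name, which the comparisons of genes leave out. In a fit of all 21448 probe sets, 204 passed the threshold (limma, adjusted p under 0.05), and 23 of these belong to the 3739 unnamed probe sets (0.615% of them): 5 were higher and 18 lower with enzalutamide. They are given as a count only.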

How the results depend on the processing

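No result reversed. Not counting the 2-fold minimum and the fit of all probe sets, the 60 named genes past the threshold kept their direction in all alternatives. Of the 60, 39 stayed past the threshold whichever array was left out, and 21 stayed past it in all those alternatives. Rises (68) and falls (127) numbered 153 and 214 with a robust, trended prior, which kept 186 of the 195 calls. They numbered 19 and 55 without the no-inhibitor background, 31 and 73 without the ABC294640 background, 8 and 37 without the PF-543 background, 3 and 13 with a minimum of 2-fold, and 35 to 62 and 85 to 123 when each array was left out. Quantile, cyclic loess and median scaling kept 187, 189 and 187 of the calls, and moved the median of all genes by at most 0.008. Equal weight to the backgrounds gave 156 calls, 136 of them shared, and no covariate 189, with 153 shared. With the replicate number as a block on the 14 numbered arrays, 26 rises and 62 falls passed, against 49 and 87 on the same arrays without it. Same-numbered arrays did not deviate together (26 pairs, r from -0.037 to 0.072), and neither did arrays of different number (52 pairs, -0.048 to 0.043). With so few arrays per group, this cannot tell whether the numbers pair the samples. The F test gave 2 calls with the robust prior (TLK1 and ZFTA) and 0 when any array was left out. Calls without inhibitor (55) were 266 with the robust prior, 3 on their own 5 arrays, 0 with the block and 12 to 58 leaving out arrays. Calls on PF-543 (55) were 147, 17, 4 and 24 to 39 in that order. Calls on ABC294640 (14) were 38 with the robust prior, 0 on their own arrays and 8 to 9 leaving out arrays; the block could not be applied there. Androgen-induced falls (15) were 8 to 11 and ATF4 target rises (12) 4 to 9 when a background was left out. The number of arrays limits the precision.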
